A study of Mus musculus with 4 samples.

Results

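*H19*, *Dlk1*, *Meg3*, *Peg3*, *Mest*, *Cdkn1c*, *Grb10*, *Plagl1*, *Ndn* and *Nnat* are imprinted genes of the mouse embryo, most of them with known roles in growth. They were taken by symbol from the deposited table, and all 10 were found among its 13577 genes. All 10 also had a mean above 1 CPM (reads scaled by library total), the level set for testing. *Igf2*, the best known imprinted growth gene, is not among them and is given as the neighbour of *H19*. The comparison asked whether these genes moved together between the groups.

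An imprinted gene is expressed mainly from the copy inherited from the mother or mainly from the copy inherited from the father, according to DNA methylation laid down in the egg or the sperm and kept through later cell divisions. Imprinted genes lie in clusters in which a shared control region, often with a long noncoding RNA, sets the active copy of several neighbours. Many paternally expressed members promote growth of the embryo and many maternally expressed members restrain it, and several are abundant in embryonic mesenchyme.

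Nasal process (NP) tissue of E11.5 mouse embryos was analyzed by bulk RNA-Seq, with a pair of libraries per group, named control and ca-*Acvr1* mutant in their titles. Per the study's methods, control embryos carried *P0-Cre* without the transgene, and mutant embryos carried *P0-Cre* with ca-*Acvr1(A11)*, a floxed transgene of constitutively active *Acvr1* from line A11, a type I BMP receptor. The genotype entries of the samples give the groups the other way round (the transgene for the libraries titled control, *P0-Cre* alone for the others). The titles were used, and if the genotype entries were right, each direction given below would turn around. The *P0-Cre* driver acts in the neural crest, so cells of other origin in the dissected tissue, such as epithelium, endothelium and blood, are not its targets, a single transgenic line was used, and all mice were of a mixed background. The embryos were matched by somite number. Their sex in each library, and whether a library came from a single embryo or a pool, are not given in the sources used here, so p-values measure only the spread between these libraries. *Acvr1* itself was at 21.5 and 23.1 CPM in control libraries and at 24.1 and 12.6 CPM in ca-*Acvr1* libraries. These groups overlapped, and since it is not known here whether reads of the transgene fall on this gene, the values do not check the labels. The study describes more *Acvr1* RNA in mutant NP tissue from in situ hybridization on sections, not from RNA-Seq, and these values do not follow it. The study picked *Pdgfra* through its RNA-Seq and describes it as reduced in mutant NP tissue by other methods. This gene is thus not an independent check of the labels. *Pdgfra* runs in the direction of the titles. It was at 85.3 and 113.6 CPM in the libraries titled control and at 13.2 and 17.9 CPM in those titled mutant, with no overlap. The study also states that *Pdgfrb* was reduced in its RNA-Seq of mutants. *Pdgfrb* was at 53.7 and 75.5 CPM in the libraries titled control and at 18.6 and 23.7 CPM in those titled mutant.

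The libraries were made with a kit that starts from the poly(A) tail. Reads should thus come mainly from the 3′ ends of transcripts, and long transcripts should not gain reads. Where the reads fall was not examined here. The control libraries held 1956831 and 2252586 reads and the ca-*Acvr1* libraries 2408827 and 2137027 reads, and 1 read was worth between 0.415 and 0.511 CPM. The 10 genes took 0.698% and 0.654% of the reads in control replicates 1 and 2, and 0.705% and 0.725% in ca-*Acvr1* replicates 1 and 2. By their mean level over the 4 libraries the order was *Nnat* (2324 CPM, rank 17 of all genes), *H19* (1365 CPM), *Grb10* (979.8 CPM), *Dlk1* (954 CPM), *Cdkn1c* (529.9 CPM), *Meg3* (337 CPM), *Plagl1* (217 CPM), *Mest* (100.6 CPM), *Ndn* (92.2 CPM) and *Peg3* (52.9 CPM). The ranges over the 4 libraries overlapped between *Grb10* and *Dlk1*, *Dlk1* and *Cdkn1c*, *Meg3* and *Plagl1*, and *Mest* and *Ndn*, and did not overlap between the other neighbours in this order.

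The 10 genes did not move together. *Dlk1* was the only 1 that passed the test in limma (adjusted p under 0.05), and it was higher in ca-*Acvr1* libraries; of the 12462 genes tested, 0.305% were called higher and 0.899% in either direction. At an unadjusted p under 0.05 from limma 2 of the 10 passed (*Dlk1* and *Meg3*), beside 9.55% of all genes tested. The log2 fold change was above 0 for 6 of the 10, beside 54.2% of all genes, and the median over the 10 was 0.07, beside 0.03 over all genes tested. Both ca-*Acvr1* libraries lay above both control libraries for 5 members (*Dlk1*, *Meg3*, *Peg3*, *Mest* and *Plagl1*), beside 21.9% of all genes, and below both for 2 (*Cdkn1c* and *Grb10*), beside 16.8% of all genes. For *H19*, *Ndn* and *Nnat* the groups overlapped. With 2 libraries in each group the smallest p of an exact permutation test is 0.333, so a call for any of these genes rests on the spread that limma estimated across all genes.

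**Figure D1:**
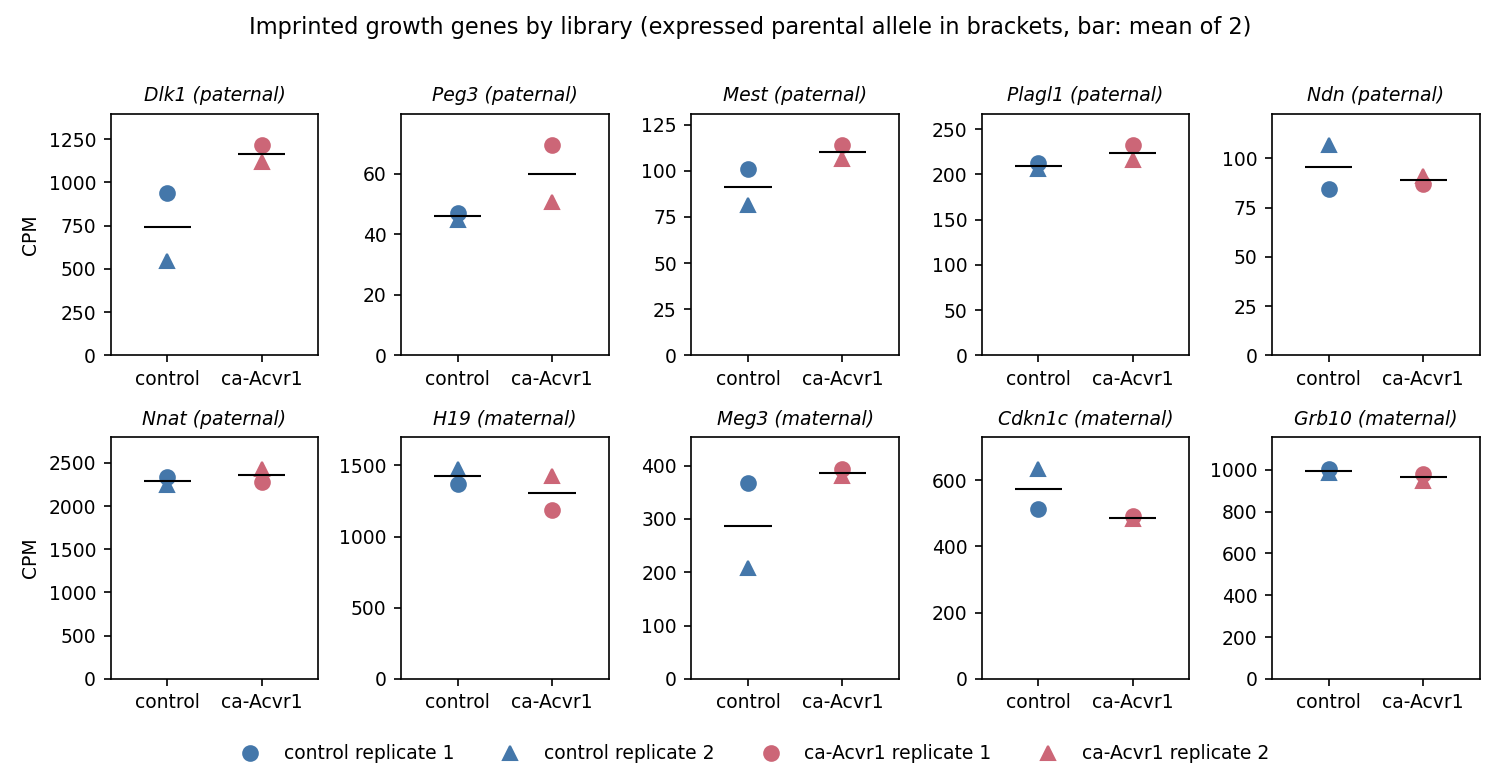
CPM of each of the 10 genes in the 4 libraries, with control in blue, ca-*Acvr1* in red, circles for replicate 1, triangles for replicate 2, and a bar at the mean of each group; each vertical axis starts at 0. Control replicate 2 lies far below the other 3 libraries for *Dlk1* (549 CPM) and *Meg3* (208 CPM), while *Grb10* and *Nnat* hardly vary.

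Among the paternally expressed members, *Dlk1* encodes a membrane protein of the Notch ligand family, also shed as a soluble form, that keeps precursor cells of several lineages undifferentiated. *Dlk1* (Entrez 13386, chr12:109452823-109463336 on the plus strand of GRCm38 in GENCODE) was at 938 and 549 CPM in control replicates 1 and 2 and at 1214 and 1117 CPM in ca-*Acvr1* replicates 1 and 2. Both ca-*Acvr1* libraries were above both control libraries, and control replicate 2 was far below the other 3. The mean and SD (n = 2) were 743 ± 275 CPM for control and 1165 ± 68.5 CPM for ca-*Acvr1* libraries. On the log2 scale the difference was 0.70, with a standard error of 0.17 and a 95% confidence interval from 0.35 to 1.05 (adjusted p = 0.0437 from limma). This call did not hold with edgeR (adjusted p = 0.0759) or DESeq2 (adjusted p = 0.9998) on the recovered reads. It depended on single libraries. Without control replicate 2 the log2 fold change of *Dlk1* was 0.31 (adjusted p = 0.477 in limma), without ca-*Acvr1* replicate 1 it was 0.64 (adjusted p = 0.120), and without control replicate 1 it was 1.08 (adjusted p = 1.22e-12). Over the 15 alternative settings the gene was higher in all 15 and called in 7, with adjusted p-values from 1.22e-12 to 0.9998.

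*Meg3* is the maternally expressed noncoding RNA of the same cluster, with its start 88.2 kb from that of *Dlk1* on the same strand, and is retained in the nucleus. *Meg3* (Entrez 17263, chr12:109541001-109571726) was at 367 and 208 CPM in control and at 394 and 380.0 CPM in ca-*Acvr1* libraries. The order of the libraries was that of *Dlk1*, although the active copies of this pair come from opposite parents. The log2 fold change was 0.49 (standard error 0.17, 95% confidence interval 0.13 to 0.84, adjusted p = 0.300 from limma), and it was 0.08 without control replicate 2 and 0.89 (adjusted p = 7.96e-07) without control replicate 1. The ratio of *Dlk1* to *Meg3* reads within a library, which does not depend on its scaling, was 2.56 and 2.64 in control and 3.08 and 2.94 in ca-*Acvr1* libraries. The ratio was thus nearly the same in the control replicates, whose levels of each gene differed most, and was above both of them in both ca-*Acvr1* libraries. This and the ratios that follow were chosen after the values had been seen and were not tested.

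Control replicate 2 was below control replicate 1 by 0.77 for *Dlk1* and by 0.82 for *Meg3* on the log2(CPM + 1) scale, where counting error alone gives standard deviations of 0.05 and 0.09. Of the 2172 genes with a mean above 100 CPM, 15 (0.691%) differed between the control replicates by at least as much as *Dlk1*, in either direction, and 10 (0.460%) by at least as much as *Meg3*. The ca-*Acvr1* replicates differed by 0.12 for *Dlk1* and by 0.05 for *Meg3*, and 49.4% and 77.2% of these genes differed by at least as much there. Of the 10 members, control replicate 2 was the lowest library for 6 and the highest for 3.

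**Figure D2:**
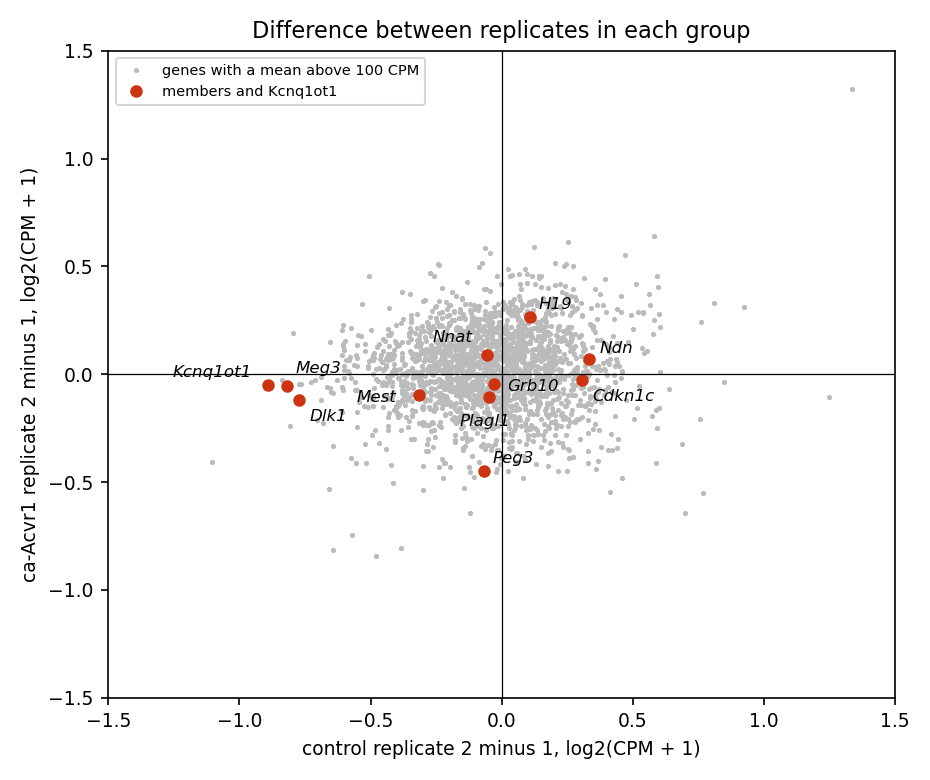
Difference between replicates 2 and 1 on the log2(CPM + 1) scale in control (horizontal axis) and in ca-*Acvr1* libraries (vertical axis), with 2169 of the 2172 genes with a mean above 100 CPM in grey (3 lie outside the axes) and the 10 members and *Kcnq1ot1* in red. *Dlk1*, *Meg3* and *Kcnq1ot1* stand at the left edge of the cloud, at -0.77, -0.82 and -0.89 in control, and within 0.12 of 0 in ca-*Acvr1* libraries.

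The other genes of the *Dlk1* cluster were low. *Rian*, a maternally expressed noncoding RNA, was at 8.18 and 4.88 CPM in control and at 8.30 and 6.08 CPM in ca-*Acvr1* libraries, and *Mirg*, the next noncoding RNA along the strand, at 10.7, 4.88, 8.72 and 10.3 CPM in the same order. Both were lowest in control replicate 2, with overlapping groups, on at most 22 reads in a library. The paternally expressed *Rtl1* and *Dio3* had at most 3 and 8 reads in a library, and their log2 fold changes were -0.27 (95% confidence interval -1.39 to 0.85) and -0.56 (-1.54 to 0.42), so that no difference was detectable at this depth.

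With all 4 libraries, *Dlk1*, *Meg3* and *Peg3* had the 3 highest fold changes of the members. Without ca-*Acvr1* replicate 1 *Mest* (0.23) was above *Peg3* (0.14), and without control replicate 2 *Mest* (0.12) was above *Meg3* (0.08). The promoter windows of *Dlk1*, *Meg3* and *Peg3* are shown for their order with all libraries. They run from 250 bases before to 50 bases after the start of transcription, 5′ to 3′, from RefSeq on GRCm38.p6, in which 8 of the 10 members have an entry (*H19* and *Cdkn1c* have none). The windows are chr12:109452573-109452872 (plus strand) for *Dlk1*, chr12:109540746-109541045 (plus strand) for *Meg3* and chr7:6730370-6730669 (minus strand) for *Peg3*. Capitals mark matches on either strand to GGCGCC (the letters bound by SMAD1/5 in BMP response elements), GGGGCCCC (letters of the motif of PLAGL1, itself a member) and TATAAA (the TATA box).
*Dlk1* promoter: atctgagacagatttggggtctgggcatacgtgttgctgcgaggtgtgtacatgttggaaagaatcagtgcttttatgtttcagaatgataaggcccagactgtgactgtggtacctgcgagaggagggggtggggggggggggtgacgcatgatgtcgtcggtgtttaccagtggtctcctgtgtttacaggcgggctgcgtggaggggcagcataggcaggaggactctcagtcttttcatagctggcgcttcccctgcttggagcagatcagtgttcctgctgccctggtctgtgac
*Meg3* promoter: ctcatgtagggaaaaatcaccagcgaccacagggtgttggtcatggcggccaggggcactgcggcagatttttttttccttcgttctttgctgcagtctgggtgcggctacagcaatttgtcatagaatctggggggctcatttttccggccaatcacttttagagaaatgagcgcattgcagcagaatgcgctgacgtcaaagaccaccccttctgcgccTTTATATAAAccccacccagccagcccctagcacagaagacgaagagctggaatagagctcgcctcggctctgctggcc
*Peg3* promoter: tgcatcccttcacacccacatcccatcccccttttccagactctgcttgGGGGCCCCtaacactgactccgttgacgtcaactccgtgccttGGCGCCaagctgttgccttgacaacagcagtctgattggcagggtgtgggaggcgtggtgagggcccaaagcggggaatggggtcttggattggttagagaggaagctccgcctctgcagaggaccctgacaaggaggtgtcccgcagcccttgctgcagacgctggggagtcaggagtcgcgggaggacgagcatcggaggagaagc
The *Dlk1* window holds none of these letters. The *Meg3* window holds TATAAA on both strands, in matches that overlap, and 13.6% of all 32851 promoter windows of this length hold it. No other member has TATAAA in its window. The *Peg3* window holds GGCGCC and GGGGCCCC, found in 11.9% and 1.08% of all windows, and is the only 1 of the 8 members' windows nearest to the annotated start with either. A pair of further *Mest* windows, starting at chr6:30737800 and chr6:30737803, also hold GGCGCC, and the nearest *Mest* window lies 9959 bases from the annotated start. The nearest windows of *Plagl1*, *Ndn* and *Grb10* lie 30328, 1708 and 1263 bases from theirs, and those of the remaining members at most 12 bases. *Dlk1* has 9 CG dinucleotides in its window and *Meg3* and *Peg3* have 13 each, beside a median of 7 over all windows. Among those 8 windows the number ranged from 8 to 45 (*Grb10*). These matches describe the letters of the windows and were not tested as binding sites.

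*Peg3* encodes a zinc finger protein that represses transcription. *Peg3* (Entrez 18616, chr7:6703892-6730431 on the minus strand) was at 47.0 and 44.8 CPM in control and at 69.3 and 50.5 CPM in ca-*Acvr1* libraries. Both ca-*Acvr1* libraries were above both control libraries, and replicate 1 was the higher of the pair by 0.45 on the log2 scale. Its log2 fold change was 0.36 (95% confidence interval -0.03 to 0.75, adjusted p = 0.576 from limma). It was 0.14 without ca-*Acvr1* replicate 1 and 0.58 without ca-*Acvr1* replicate 2. *Usp29*, a paternally expressed gene that starts 147 bases away on the opposite strand, was at 29.6 and 38.6 CPM in control and at 47.7 and 49.1 CPM in ca-*Acvr1* libraries. It separated the groups in the same direction, with a log2 fold change of 0.50 (95% confidence interval 0.09 to 0.92, adjusted p = 0.379 from limma), and here control replicate 2 was the higher control library. *Zim1*, the maternally expressed gene on the other side of *Peg3*, was at 0 in control replicate 2 and had at most 7 reads in any library, with a log2 fold change of 0.96 (95% confidence interval -0.20 to 2.12).

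*Mest* encodes a protein of the hydrolase family and *Plagl1* a zinc finger transcription factor that acts on other imprinted genes. *Mest* (Entrez 17294, chr6:30723547-30748465) was at 101.2 and 81.2 CPM in control and at 114 and 106 CPM in ca-*Acvr1* libraries. *Plagl1* (Entrez 22634, chr10:13060504-13131694) was at 213 and 206 CPM in control and at 232 and 216 CPM in ca-*Acvr1* libraries. Both genes were higher in both ca-*Acvr1* libraries, by less for *Plagl1*, where the nearest libraries of the groups were 213 and 216 CPM. The log2 fold changes were 0.27 (95% confidence interval -0.06 to 0.60, adjusted p = 0.643 from limma) for *Mest* and 0.09 (-0.19 to 0.38, adjusted p = 0.906) for *Plagl1*. With a library left out they ran from 0.12 to 0.43 for *Mest* and from 0.04 to 0.15 for *Plagl1*. The 3′ end of *Mest*, where these reads should gather, shares 912 bases with *Copg2* on the opposite strand. The sources used here do not give whether strand was used in counting. *Copg2* was at 16.4, 11.99, 16.6 and 18.7 CPM in control replicates 1 and 2 and ca-*Acvr1* replicates 1 and 2, a log2 fold change of 0.31 (95% confidence interval -0.25 to 0.88), and *Klf14*, also of this cluster, had at most 4 reads in a library.

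*Ndn* encodes necdin, a MAGE family protein that binds E2F factors and restrains division in young neurons, and *Nnat* encodes neuronatin, a small membrane protein of the endoplasmic reticulum. *Ndn* (Entrez 17984, chr7:62346569-62350262) was at 84.3 and 107 CPM in control and at 86.8 and 91.2 CPM in ca-*Acvr1* libraries. *Nnat* (Entrez 18111, chr2:157560078-157562522) was at 2338 and 2247 CPM in control and at 2281 and 2431 CPM in ca-*Acvr1* libraries. In both genes the groups overlapped, and the differences were within the spread between replicates. Their log2 fold changes were -0.09 (95% confidence interval -0.43 to 0.25) and 0.04 (-0.26 to 0.34), and the sign turned for *Ndn* without control replicate 2 (0.08) and for *Nnat* with upper-quartile scaling (-0.0016) and without ca-*Acvr1* replicate 2 (-0.0071). *Nnat* lies within the span of *Blcap* on the opposite strand. Overlap of their exons was not examined, so it is not known here whether reads of the 2 genes could be mixed if strand was not used. *Blcap* was at 37.3 and 39.5 CPM in control and at 50.6 and 47.7 CPM in ca-*Acvr1* libraries, with a log2 fold change of 0.35 (95% confidence interval -0.04 to 0.74). In the cluster of *Ndn*, *Peg12* (0.19), *Magel2* (0.39), *Mkrn3* (0.02), *Ube3a* (0.03) and *Atp10a* (0.62) had positive log2 fold changes and none passed the test. With a library left out, *Mkrn3*, *Ube3a* and *Atp10a* turned sign. *Peg12* and *Magel2* stayed positive, at 0.10 and 0.17 without control replicate 2.

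Among the maternally expressed members, *H19* is a noncoding RNA that restrains growth and gives rise to a microRNA. *H19* (Entrez 14955, chr7:142575529-142578143 on the minus strand) was at 1369.6 and 1476 CPM in control and at 1187 and 1427 CPM in ca-*Acvr1* libraries. The groups overlapped, with ca-*Acvr1* replicate 1 the lowest. Its log2 fold change was -0.13 (95% confidence interval -0.42 to 0.17, adjusted p = 0.861 from limma), and 0.0050 without ca-*Acvr1* replicate 1. *Igf2* (Entrez 16002), whose start lies 88.7 kb from that of *H19* and whose active copy is the paternal copy, was at 296 and 373 CPM in control and at 323 and 308 CPM in ca-*Acvr1* libraries. Here too the groups overlapped, with a log2 fold change of -0.07 (95% confidence interval -0.37 to 0.22) that was 0.09 without control replicate 2. The ratio of *H19* to *Igf2* reads was 4.63 and 3.95 in control and 3.67 and 4.63 in ca-*Acvr1* libraries, with no separation of the groups.

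*Cdkn1c* encodes p57, an inhibitor of cyclin-dependent kinases that stops the cell cycle. *Cdkn1c* (Entrez 12577, chr7:143458339-143461050 on the minus strand) was at 513 and 634 CPM in control and at 491 and 482 CPM in ca-*Acvr1* libraries. Both ca-*Acvr1* libraries were below both control libraries, and control replicate 2 was the library that stood apart. *Cdkn1c* had a log2 fold change of -0.23 (95% confidence interval -0.51 to 0.06, adjusted p = 0.660 from limma), and -0.08 without control replicate 2. *Kcnq1ot1*, the paternally expressed noncoding RNA that silences *Cdkn1c* on the same chromosome copy, was at 580.0 and 313 CPM in control and at 647 and 625 CPM in ca-*Acvr1* libraries. It had the pattern of *Dlk1* and *Meg3*, with control replicate 2 far below the other 3 libraries. The log2 fold change of *Kcnq1ot1* was 0.58 (95% confidence interval 0.21 to 0.95, adjusted p = 0.183 from limma), 0.13 without control replicate 2 and 1.02 (adjusted p = 3.73e-10) without control replicate 1. The ratio of *Cdkn1c* to *Kcnq1ot1* reads was 0.884 in control replicate 1, 2.03 in control replicate 2 and 0.759 and 0.771 in ca-*Acvr1* replicates 1 and 2, so that control replicate 1 was nearer to the ca-*Acvr1* libraries than to the other control library. *Phlda2*, a maternally expressed gene of this cluster that limits placental growth, had 3 and 9 reads in control and 12 and 27 reads in ca-*Acvr1* libraries (log2 fold change 1.34, 95% confidence interval 0.43 to 2.26, adjusted p = 0.233 from limma). It was called without control replicate 2 (adjusted p = 0.0251) and without ca-*Acvr1* replicate 1 (adjusted p = 0.0412), on few reads. *Kcnq1ot1* shares 93092 bases with the span of *Kcnq1* on the opposite strand. The level of *Kcnq1ot1* and its ratio to *Cdkn1c* may thus also depend on whether strand was used in counting. *Kcnq1* had at most 2 reads in a library and was below the level set for testing.

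*Grb10* encodes an adaptor that dampens signaling of the insulin and IGF receptors. *Grb10* (Entrez 14783, chr11:11930508-12038683 on the minus strand) was at 1005 and 986 CPM in control and at 980.1 and 949 CPM in ca-*Acvr1* libraries. The groups did not overlap, but the nearest libraries of the 2 groups were 986 and 980.1 CPM. For *Grb10* the log2 fold change was -0.05 with a 95% confidence interval of -0.32 to 0.23 (adjusted p = 0.957 from limma). Its neighbours *Ddc* and *Cobl* had log2 fold changes of -0.0001 (95% confidence interval -0.60 to 0.60) and -0.41 (-1.14 to 0.31).

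**Figure D3:**
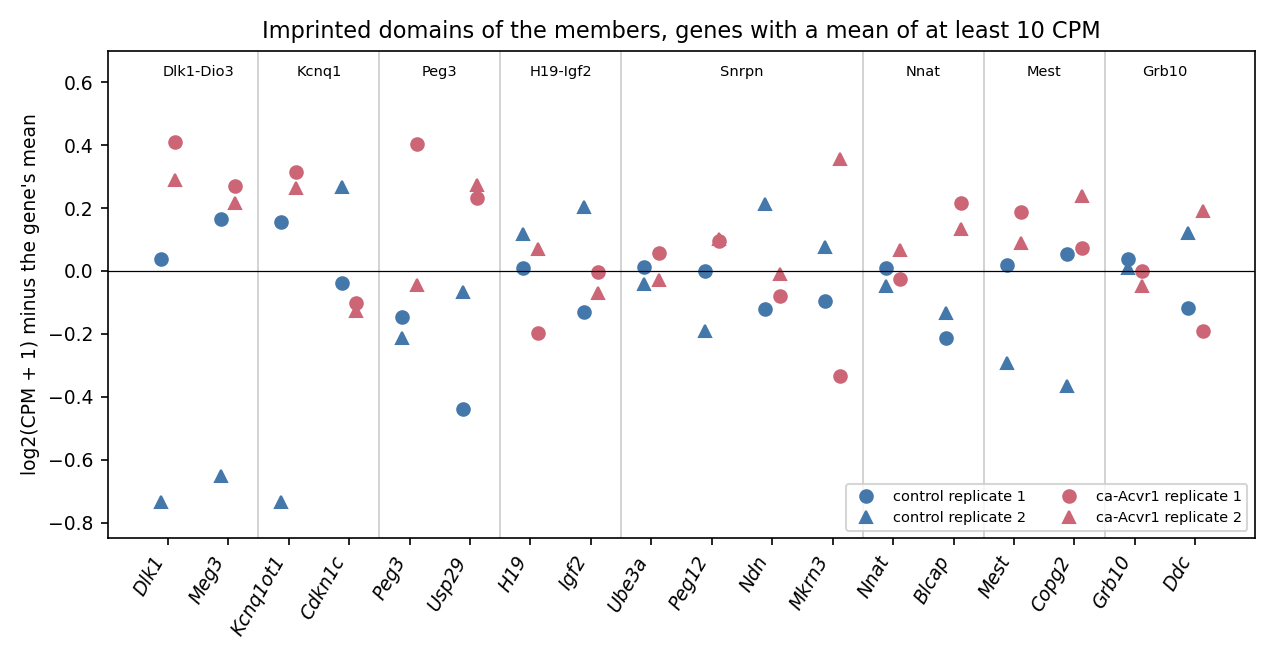
Level of each gene in the clusters of the members in the 4 libraries, as log2(CPM + 1) minus the gene's mean over the libraries, for genes with a mean of at least 10 CPM, with control in blue, ca-*Acvr1* in red, circles for replicate 1 and triangles for replicate 2. *Dlk1*, *Meg3* and *Kcnq1ot1* share a low control replicate 2, while *H19*, *Igf2*, *Cdkn1c* and *Ndn* were highest in that library.

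By active parental copy, of the 6 paternally expressed members 5 had a log2 fold change above 0, with a median of 0.18, and of the 4 maternally expressed members 1 did (*Meg3*), with a median of -0.09. Summed over the members, the ratio of paternally to maternally expressed CPM was 1.14 and 0.979 in control and 1.31 and 1.24 in ca-*Acvr1* libraries. *Dlk1*, low in control replicate 2, is part of the paternally expressed sum, and the ratio without it was not computed. The signs behind these counts were not all stable, since those of *Nnat*, *H19* and *Ndn* (the paternally expressed member below 0) turned in some alternatives. Among the other imprinted genes tested, 15 of 19 paternally and 12 of 18 maternally expressed genes had a log2 fold change above 0, with medians of 0.13 and 0.21. Their summed ratio of paternally to maternally expressed CPM was 1.97 and 1.63 in control and 2.02 and 2.05 in ca-*Acvr1* libraries. Without *Kcnq1ot1* it was 1.32 and 1.29 in control and 1.32 and 1.37 in ca-*Acvr1* libraries. Whether genes active on the maternal and the paternal copy differed was not tested.

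**Figure D4:**
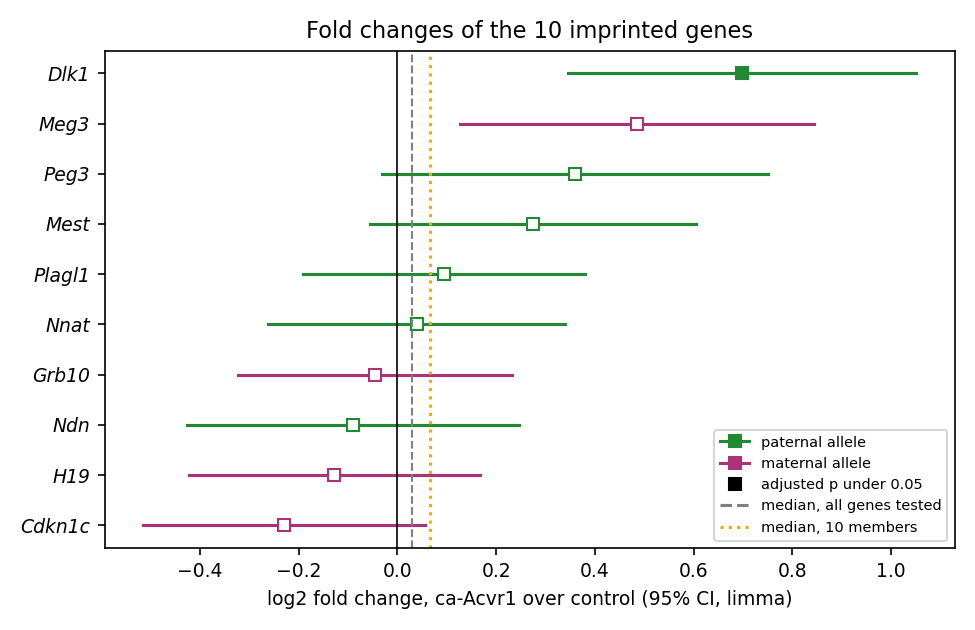
Log2 fold change of each of the 10 genes between ca-*Acvr1* and control libraries with its 95% confidence interval from limma, paternally expressed genes in green and maternally expressed genes in purple; the filled square (*Dlk1*, 0.70) passed the test, and dashed and dotted lines mark the medians of all genes tested (0.03) and of the 10 (0.07). The genes spread from -0.23 (*Cdkn1c*) to 0.70 (*Dlk1*), on both sides of 0.

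Of the 44 other imprinted genes listed for comparison, 39 were in the table and 38 were tested. In limma 0 of the 38 passed, with 3 higher at an unadjusted p under 0.05 (*Kcnq1ot1*, *Phlda2* and *Usp29*; 676 of all 12462 genes tested were higher at this level), and edgeR and DESeq2 called 0 as well. Leaving out any of 3 libraries brought the count to 1, *Kcnq1ot1* without control replicate 1 and *Phlda2* without control replicate 2 or without ca-*Acvr1* replicate 1. The log2 fold change was above 0 for 28 of the 38, with a median of 0.14 beside 0.03 over all genes tested, and both ca-*Acvr1* libraries lay above both control libraries for 10 and below both for 2. The shares over all genes tested were, as given above, 54.2% above 0, 21.9% not overlapping and higher, and 16.8% not overlapping and lower. The imprint maintenance list held 14 genes that set, keep, read or remove DNA methylation, such as *Dnmt1*, *Uhrf1*, *Trim28*, *Zfp57* and *Tet1*. Of these, 12 were tested. In limma, edgeR or DESeq2 0 passed, and 0 passed at an unadjusted p under 0.05 in limma. Both ca-*Acvr1* libraries lay above both control libraries for 1 (*Ctcf*), beside 21.9% of all genes tested. They lay below both for 3 (*Dnmt1*, *Dnmt3a* and *Uhrf1*), beside 16.8% of all genes tested. The median log2 fold change of the 12 genes was 0.03. Their median turned to -0.09 without control replicate 2 and to -0.07 without ca-*Acvr1* replicate 1.

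The 24 tested partners of the members were receptors and substrates of IGF signaling, cyclins and their kinases and inhibitors, Notch and E2F genes, a calcium pump and relatives of *Plagl1*. Of these, 1 passed in limma, and 4 were higher and 1 lower at an unadjusted p under 0.05, beside 0.899% and 9.55% of all genes tested in either direction. The gene that passed was *Cdkn1a*, which encodes p21, an inhibitor of cyclin-dependent kinases of the same family as *Cdkn1c*. *Cdkn1a* was at 29.1 and 32.4 CPM in control and at 189.7 and 164 CPM in ca-*Acvr1* libraries. Both ca-*Acvr1* libraries were far above control, and the log2 fold change was 2.48 with a standard error of 0.17 (limma, adjusted p = 1.46e-10), whereas its imprinted relative *Cdkn1c* had a log2 fold change of -0.23. With control replicate 1 left out 3 partners passed (*Cdkn1a*, *Ccnd2* and *Cdk2*).

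The groups also differed in markers of cell types, and in bulk tissue fewer cells of a type and less RNA per cell cannot be told apart. Of all 12462 genes tested, limma called 74 lower and 38 higher, and 676 were higher at an unadjusted p under 0.05. Of 10 markers of neural crest mesenchyme 8 were called lower in limma (*Prrx1*, *Prrx2*, *Twist1*, *Pdgfra*, *Alx1*, *Alx4*, *Col1a1* and *Col3a1*). The 10 summed to 1167 and 1595 CPM in control and to 639 and 732 CPM in ca-*Acvr1* libraries. *Col3a1*, the most abundant, was at 296, 437, 193 and 249.9 CPM in control replicates 1 and 2 and ca-*Acvr1* replicates 1 and 2. Control replicate 2, low in *Dlk1* and *Meg3*, was the highest library in this sum, and without it 5 of the 10 were called (9 without control replicate 1 and 6 without ca-*Acvr1* replicate 1). *Msx1*, called lower without control replicate 1 (log2 fold change -0.93), was at 0.28 without control replicate 2. DESeq2 called 5 of these markers lower and 0 of the epithelial markers, and edgeR called the same genes as limma in both lists. Of 10 epithelial markers 2 were called higher (*Cdh1*, the most abundant, and *Epcam*), and the list summed to 272 and 255 CPM in control and to 420.1 and 383 CPM in ca-*Acvr1* libraries. Without control replicate 1 *Krt18* was called too, without control replicate 2 *Epcam* alone was called, without ca-*Acvr1* replicate 2 *Cdh1* alone, and without ca-*Acvr1* replicate 1 the count was 0. All 11 neural markers had log2 fold changes above 0 with none called in limma, edgeR or DESeq2 and 4 higher at an unadjusted p under 0.05 in limma, and they summed to 1458 and 1471 CPM in control and to 1757 and 1938 CPM in ca-*Acvr1* libraries (*Sox2* the most abundant, at 455, 429, 616 and 633 CPM). Without control replicate 1 *Sox2* and *Elavl3* were called. No marker of these 3 lists was at 0 in any library. The part of these differences in the levels of the imprinted genes was not tested.

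**Figure D5:**
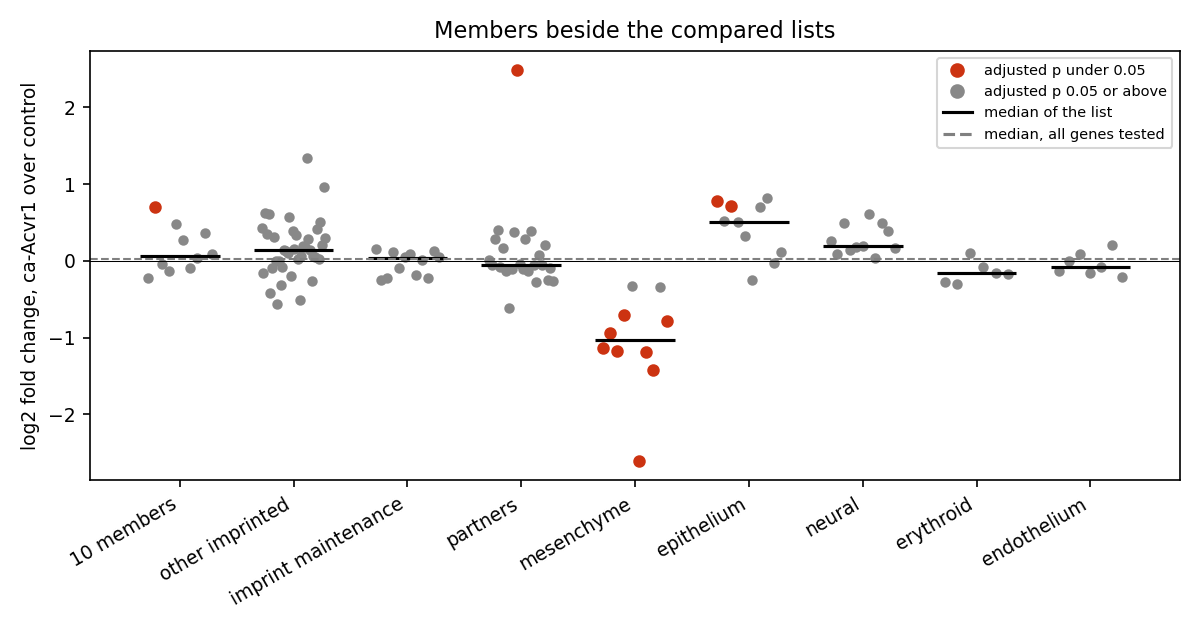
Log2 fold change of each tested gene in the members, the compared lists and 5 lists of cell type markers, in red where it passed the test in limma, with a bar at the median of each list and a dashed line at the median of all genes tested (0.03). The members lie around 0 with *Dlk1* alone called, while the mesenchyme markers lie below 0 (median -1.04) and most epithelial markers above it (median 0.51).

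The remaining marker lists held few calls. Pericyte markers had 1 gene called lower, *Pdgfrb*, their most abundant gene, at 53.7 and 75.5 CPM in control and at 18.6 and 23.7 CPM in ca-*Acvr1* libraries, with list sums of 62.9, 84.3, 26.1 and 31.6 CPM in control replicates 1 and 2 and ca-*Acvr1* replicates 1 and 2, and *Cspg4* was at 0 in some libraries. These sums follow *Pdgfrb*, which is not particular to pericytes, since the study describes its protein together with PDGFRα in craniofacial mesenchyme. Of the other 3 pericyte markers tested *Abcc9* had a negative log2 fold change (-1.05, 95% confidence interval -1.90 to -0.19, not called), while *Rgs5* (0.64, -0.43 to 1.71) and *Kcnj8* (0.29, -0.74 to 1.33) had positive ones on at most 8 reads in a library. The values of *Pdgfra* and *Pdgfrb* include some that are not whole reads, while those of all 10 members are whole. None of the genes passed in the muscle, endothelial, erythroid, macrophage and cartilage lists in limma, edgeR or DESeq2. In the same order of libraries the muscle list summed to 34.8, 45.7, 31.6 and 33.2 CPM (*Pax7* the most abundant), the endothelial list to 165, 169, 168 and 158 CPM (*Kdr*) and the cartilage list to 841, 790.2, 658 and 649.97 CPM (*Sox9*). The erythroid list summed to 7011, 8469.8, 6695 and 7189 CPM (*Hbb-y*) and the macrophage list to 15.8, 17.8, 24.5 and 36.5 CPM (*C1qb*), with *C1qa* at 0 in at least 1 library. At an unadjusted p under 0.05 in limma, 1 of 5 muscle genes and all 3 cartilage genes tested were lower, 2 of 5 macrophage genes were higher, and 0 of 7 endothelial and 0 of 6 erythroid genes passed. Of all 12462 genes tested, 514 were lower and 676 higher at this level. For all 3 cartilage genes both ca-*Acvr1* libraries lay below both control libraries, beside 16.8% of all genes tested. Without control replicate 1, *Hbb-bh1* (log2 fold change -0.43) and *Col9a1* (-0.89) were called lower, and without control replicate 2, *C1qb* was called higher and *Hbb-bh1* was at 0.12. The sign of *Kcnj8* turned without ca-*Acvr1* replicate 2 (-0.25).

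Of the 10 members 3 host microRNAs within their transcripts, which poly(A)-primed libraries do not measure and which are shown for the products these RNAs carry. The mature sequences, from RefSeq on GRCm38.p6, have their seed (bases 2 to 8) in capitals, and none of the 7 seeds is shared.
miR-675-5p in *H19* (chr7:142577112-142577133, minus strand): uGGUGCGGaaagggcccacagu
miR-675-3p in *H19* (chr7:142577078-142577099, minus strand): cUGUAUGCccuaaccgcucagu
miR-335-5p in *Mest* (chr6:30741314-30741336, plus strand): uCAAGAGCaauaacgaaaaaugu
miR-335-3p in *Mest* (chr6:30741354-30741375, plus strand): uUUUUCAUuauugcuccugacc
miR-770-5p in *Meg3* (chr12:109563710-109563731, plus strand): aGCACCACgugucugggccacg
miR-770-3p in *Meg3* (chr12:109563744-109563765, plus strand): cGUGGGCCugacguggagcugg
miR-1906 in *Meg3* (chr12:109544588-109544609, plus strand): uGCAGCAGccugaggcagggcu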

How the data were processed

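Bulk RNA-Seq of E11.5 NP tissue was analyzed in 4 libraries, grouped by their titles. The authors deposited CPM values for 13577 genes, scaled to library totals, and the table also has 33470 empty lines. The submitters' processing notes name STAR, featureCounts 1.6.4, DESeq2 and mm10; the counting strand is not given in the sources used here. Whole reads were recovered from the step between low values, and 99.921% of 54308 values were whole within 0.02 reads. No column of values was unused.

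Genes averaging over 1 CPM (12462) were tested with limma 3.58.1 on log2(CPM + 1), using its intensity trend, and p-values were adjusted over all of them by Benjamini-Hochberg, with 0.05 as the threshold. Fold changes are on this scale, which understates changes of low genes. Recovered reads were also tested with edgeR 4.0.16 (quasi-likelihood test; 40 genes higher, 82 lower) and DESeq2 1.42.0 (10 higher, 31 lower), scaled to library totals, under R 4.3.3. Tables were made with Python 3.11.15, pandas 2.3.3 and matplotlib 3.10.9, and coordinates are from GENCODE M21 on GRCm38.

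The genes named are the 10 members, *Igf2*, *Acvr1*, imprinted genes in a member's cluster, genes of the compared lists that passed, and of each marker list the most abundant gene and those that passed. *Ccnd2*, *Cdk2*, *Malat1*, *Cspg4*, *C1qa*, *Krt18*, *Elavl3*, *Msx1*, *Rgs5*, *Kcnj8*, *Abcc9*, *Hbb-bh1*, *Col9a1* and examples of the imprint maintenance list were named outside this rule, after their values had been seen. The members and lists were chosen with earlier results of these data known. Other listed genes (*Slc22a18*, *Snrpn*, *Snurf*, *Rasgrf1*, *Kcnk9*, *Dnmt3l*, *Dppa3*, *Dlk2*, *Myh3*, *Myod1*, *Myog*, *Hba-a1*, *Adgre1*, *Acan* and *Matn1*) were not analysed here, and 1 further mesenchyme marker is not reported here. Counting errors cover counting only. Alternatives were other pseudocounts, filters, scalings and tests, a replicate block, and each library left out.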

Additional observations from a re-analysis of the deposited data

How the results depend on the processing

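Of the 150 fold changes of the members under 15 alternatives, 137 kept their sign and their side of the threshold. The count of members called, 1 (*Dlk1*), was 0 with a pseudocount of 0.1, a mean above 5 CPM, upper-quartile scaling, limma without the trend, edgeR or DESeq2, and from 0 to 2 with a library left out. The cause was not tested. Genes called, 112, were 41 with DESeq2, 0 with limma without the trend (1026 at an unadjusted p under 0.05) and from 93 to 465 with a library left out, when the lone library of a group is assumed to vary like the others. The median of the members, 0.07, was 0.026 with upper-quartile scaling. Imprint maintenance and partner genes called, 1, were 0 without the trend and from 1 to 3 with a library left out, and other imprinted genes called, 0, were 0 to 1.

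Fold changes near 0 turned sign: *Nnat* -0.0016 with upper-quartile scaling, *Ddc* 0.0020 with DESeq2 and 0.0012 with a pseudocount of 5, and with TMM, RLE and upper-quartile scaling *Mkrn3* (-0.0091, -0.0081 and -0.019) and *Ube3a* (-0.0023, -0.0013 and -0.013). With a library left out, the ranges that crossed 0 among the members, *Acvr1* and the genes of the members' clusters were -0.26 to 0.0050 (*H19*), -0.26 to 0.077 (*Ndn*), -0.0071 to 0.085 (*Nnat*), -0.24 to 0.093 (*Igf2*), -0.18 to 0.46 (*Rian*), -0.16 to 0.83 (*Mirg*), -0.48 to 0.038 (*Rtl1*), -0.085 to 1.33 (*Atp10a*), -0.19 to 0.19 (*Ddc*), -0.33 to 0.36 (*Mkrn3*), -0.014 to 0.070 (*Ube3a*) and -0.77 to 0.11 (*Acvr1*).

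The replicate numbers share no known litter or batch. Across all genes tested, the replicate differences of the groups correlated with r = 0.0671. Counting noise of low genes lowers this value, so it cannot decide whether the samples are paired. With the replicate number as a block, limma called 229 genes, 1 other imprinted gene (*Kcnq1ot1*, adjusted p = 0.00804) 2 imprint maintenance and partner genes and 1 neural marker (*Sox2*, 0 in the main test); *Dlk1* was still the only member called (adjusted p = 8.04e-04).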

Other observations

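*Malat1*, an abundant nuclear noncoding RNA that is not imprinted, was picked after its values had been seen. It was at 2853 and 1724 CPM in control and at 2687 and 2623 CPM in ca-*Acvr1* libraries. Control replicate 2 was thus the lowest library, as for the noncoding *Meg3* and *Kcnq1ot1* and the protein-coding *Dlk1*. Of the 2172 genes with a mean above 100 CPM, 3 (*Kcnq1ot1* among them) were lower in control replicate 2 than in replicate 1 by at least as much as *Kcnq1ot1*, 5 by at least as much as *Meg3* and 9 by at least as much as *Dlk1*. The cause was not tested.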
